A study of Mus musculus with 17 samples.

Results

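The genes described are 10 members of endoplasmic reticulum-associated degradation (ERAD): Herpud1, Dnajb9, Sel1l, Syvn1, Edem1, Derl1, Derl2, Derl3, Selenos and Os9. They were chosen by symbol as core genes of the pathway, and each symbol was matched to an Ensembl gene ID. The members and the gene lists used below were chosen with earlier results of these data known. All 10 were found among the 43430 gene rows of each of the 2 count tables.

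Gene expression was measured by RNA sequencing of 17 libraries from sorted alveolar type 2 (AT2) cells, the surfactant-secreting epithelial cells of the lung, of C57BL/6J mice aged 2 months. In the first experiment, vehicle (4 libraries) and ISRIB (4 libraries) were given to naive mice and cells were taken 24 h later. ISRIB is a small molecule that activates the translation factor eIF2B and so relieves the translational block of the integrated stress response. In the second experiment, 4 libraries represent naive mice and 5 represent the lung 14 days after bleomycin, a drug that injures the alveoli, and all 9 are labelled vehicle for treatment and saline in their titles. The first set was made with poly(A) selection from 3 ng of RNA and the second from 0.35 ng with a total-RNA kit, so each comparison was made within its own set and no level was compared across them. No dose is given in the labels, and the labels do not say that replicates came from separate animals. P-values therefore measure only the spread between these libraries.

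ERAD removes proteins that fail to fold in the endoplasmic reticulum. Lectins and mannosidases select misfolded glycoproteins, a membrane complex built on the ubiquitin ligase HRD1 moves them to the cytosol and ubiquitinates them, and the ATPase p97 extracts them for the proteasome. Many of its genes are induced by the unfolded protein response, and AT2 cells rely on the pathway because they fold and secrete large amounts of surfactant proteins, including surfactant protein C, whose misfolded forms it clears.

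Herpud1 was the member that changed in both experiments, and in opposite directions. It was higher after ISRIB by a log2 fold change of 0.35 and lower after bleomycin by -0.72. After bleomycin, Sel1l was higher by 0.39 and Os9 by 0.30. The bleomycin calls of Herpud1 and Sel1l were kept in all 18 alternative analyses, that of Os9 in 8 of 18, and the ISRIB call of Herpud1 in 12 of 17. The remaining members did not pass edgeR's test in either comparison, although Dnajb9 was called higher after ISRIB by DESeq2 and limma-voom. The difference in direction between the 2 experiments was not tested, and they share no library.

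The proximal promoters of Herpud1, Sel1l and Os9 are shown first, with those of Syvn1, which holds a longer element, and Dnajb9, called by some tools after ISRIB, because several ERAD genes are known targets of the unfolded protein response through short promoter elements. The sequences are the 200 bases upstream of the RefSeq start site (GRCm38.p6), written 5′ to 3′ on the strand of the gene. Capitals mark the CCACG half-site, or CGTGG where it lies on the other strand, and the CCAAT or ATTGG part of a longer element, whose spacer is in lower case. Herpud1 lies at chr8:94386229-94386428 on the plus strand, Syvn1 at chr19:6046376-6046575 on the plus strand, Sel1l at chr12:91849158-91849357 on the minus strand, Os9 at chr10:127121161-127121360 on the minus strand and Dnajb9 at chr12:44210069-44210268 on the minus strand.
Herpud1: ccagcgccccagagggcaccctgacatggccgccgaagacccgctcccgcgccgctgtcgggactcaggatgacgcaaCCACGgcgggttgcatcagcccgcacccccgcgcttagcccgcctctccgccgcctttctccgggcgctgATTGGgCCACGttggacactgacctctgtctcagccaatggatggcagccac
Syvn1: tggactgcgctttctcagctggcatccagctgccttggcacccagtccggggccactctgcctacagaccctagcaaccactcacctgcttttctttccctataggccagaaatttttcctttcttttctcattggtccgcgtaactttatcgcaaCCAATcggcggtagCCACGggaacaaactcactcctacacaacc
Sel1l: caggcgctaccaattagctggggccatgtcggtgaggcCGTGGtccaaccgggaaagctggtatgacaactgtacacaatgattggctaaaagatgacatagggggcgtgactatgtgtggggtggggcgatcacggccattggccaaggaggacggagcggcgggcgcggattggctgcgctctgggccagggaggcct
Os9: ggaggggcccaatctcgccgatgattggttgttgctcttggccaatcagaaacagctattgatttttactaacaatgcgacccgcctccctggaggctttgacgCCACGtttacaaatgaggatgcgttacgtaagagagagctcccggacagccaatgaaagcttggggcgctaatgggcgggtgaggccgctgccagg
Dnajb9: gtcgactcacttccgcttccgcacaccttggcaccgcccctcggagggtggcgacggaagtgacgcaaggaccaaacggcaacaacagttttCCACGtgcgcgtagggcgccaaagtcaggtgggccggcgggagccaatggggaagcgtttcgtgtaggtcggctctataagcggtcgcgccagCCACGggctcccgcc

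Both strands of each RefSeq window, from 250 bases before to 50 after the start site, were searched, and 9 of the 10 members had an entry. The endoplasmic reticulum stress element (CCAAT, then 9 bases of any kind, then CCACG) was found in Syvn1, at -44 to -26 from the start site, and in Derl3, at -156 to -138 on the opposite strand. It occurred in 39 of 32851 promoter windows (0.119%). Its second form (ATTGG, then 1 base of any kind, then CCACG) was found in Herpud1 at -52 to -42, and occurred in 12 windows (0.0365%). Both elements contain the CCACG half-site, which all 9 members carried at least once, against 35.5% of the 27025 genes in the table. Derl2 carried it only in the window at chr11:71019254-71019553, at -247 to -243. Its other window, at chr11:71019792-71020091, held no half-site. The XBP1 core element TGACGTGG, present in 0.676% of windows, and the composite element TGATGCAAT, present in 0.192%, had no exact match in a member. Only these exact letters were searched, so variants of either element were not tested. The Herpud1 sequence shown above holds, on the other strand, a stretch that differs from the composite element only in its last letter. How often such near matches occur in other windows was not tested. Of the 3 members with a longer element, Herpud1 was called in both comparisons, Syvn1 in neither, and Derl3 was not called after ISRIB and had too few counts to be tested after bleomycin. A match describes these letters and does not show a bound site.

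**Figure D1:**
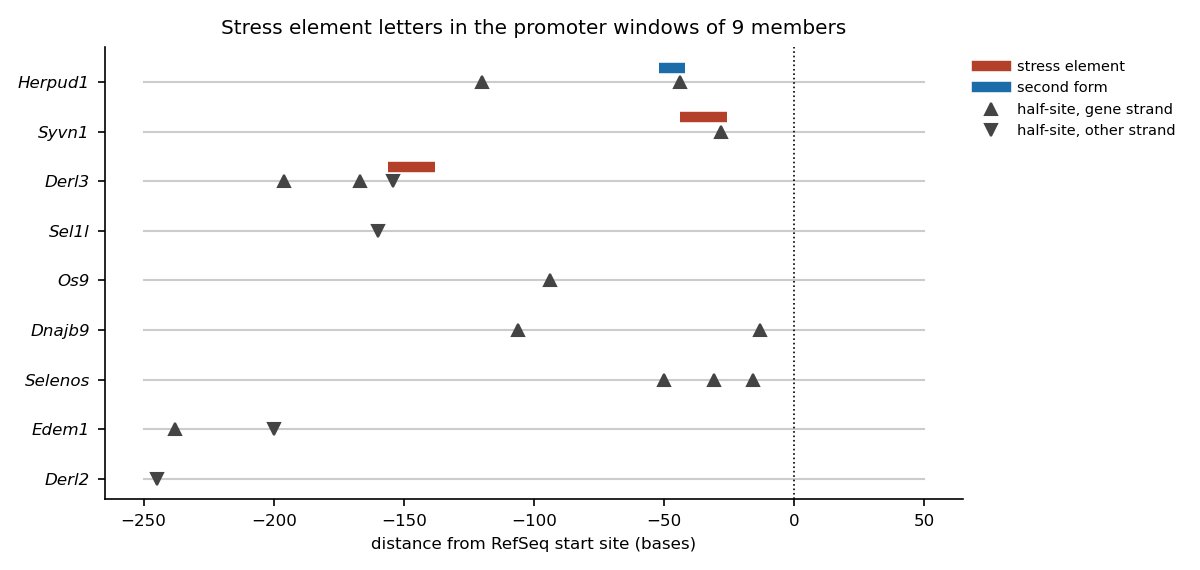
Position of element matches in the promoter windows of 9 members, in bases from the RefSeq start site (dotted line). Bars mark the stress element (red, in Syvn1 and Derl3) and its second form (blue, in Herpud1), and triangles mark CCACG half-sites on the gene strand (pointing up) or the other strand (pointing down). Every member has at least 1 half-site, that of Derl2 in only 1 of its windows, and the 3 bars each lie upstream of the start site.

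The libraries of the first experiment held 10493574 to 15727139 counts and those of the second 3295257 to 6333166. Ribosomal-RNA-like and mitochondrially encoded genes took 3.61% to 4.58% of the counts in the first set and 21.8% to 32.9% in the second. Biological variation between replicates (edgeR's common coefficient) amounted to 7.66% in the first and 21.1% in the second, so a given change is resolved less well after bleomycin. The 8 AT2 markers, which include Sftpc and Abca3, summed to 172922 to 185103 CPM (TMM-scaled counts per 10 to the power of 6 counts) over the first set and 48589 to 86404 CPM over the second. In the ISRIB comparison 33 of the 58 markers of AT2 cells and 7 other cell types passed the count filter. None was called by edgeR, DESeq2 or limma-voom, beside 2.28% of all genes called by edgeR. An unadjusted edgeR p under 0.05 was seen for 2, both lower, beside 15.8% of all genes. In the bleomycin comparison 11 of 29 tested markers were called higher by edgeR and 0 lower, beside 11.1% and 9.24% of all genes. Of the 8 AT2 markers, 2 were called higher by edgeR (Sftpd at 0.58 and Napsa at 0.40 on the log2 scale) and 0 lower. Another 2 had an unadjusted edgeR p under 0.05 in the lower direction (Sftpc and Abca3). Over all 29 tested markers DESeq2 called 11 higher and 2 lower, and limma-voom 8 higher and 2 lower. In these bulk samples, fewer cells of a type and less RNA per cell cannot be told apart.

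Per kilobase of exon, the members spanned about 2 orders of magnitude. In the vehicle libraries Os9 was at 105 ± 2.83 CPM per kb (SD, n = 4), Herpud1 at 104 ± 14.2 and Selenos at 94.1 ± 4.88, and each overlapped its neighbour in the order. Derl1 and Sel1l followed at 36.0 ± 0.98 and 34.6 ± 0.95 CPM per kb, again overlapping, and lay below Selenos in every library. Dnajb9 was at 25.7 ± 5.03, Edem1 at 12.9 ± 0.58, Syvn1 at 8.35 ± 0.55 and Derl2 at 8.03 ± 0.61 CPM per kb. Of these 4, Syvn1 and Derl2 could not be ordered. Derl3 was the lowest, at 1.17 ± 0.14 CPM per kb, from 24 to 31 counts in each library. The most abundant members per length are thus a substrate lectin, a membrane scaffold and a p97 recruiter, while the ligase Syvn1 lies near the bottom. Length here is the union of all annotated exons of a gene, and the order depends on it. In CPM not divided by length, Sel1l was highest in vehicle at 296, above Os9 at 277, Herpud1 at 242 and Selenos at 139.

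The order at the top differed between groups. In the ISRIB libraries Herpud1 led with 132 ± 4.87 CPM per kb (n = 4) and lay above Os9 (104 ± 3.21) in every library, while Selenos followed at 81.7 ± 5.98. Dnajb9, at 34.9 ± 3.69 CPM per kb, reached the level of Derl1 (34.4 ± 0.67) and Sel1l (33.1 ± 1.45). In the naive total-RNA libraries Os9 led with 77.5 ± 5.08 CPM per kb (n = 4), above Selenos (62.0 ± 7.19) and Herpud1 (46.8 ± 8.89), and Sel1l was at 27.4 ± 1.28. After bleomycin Herpud1, at 28.2 ± 6.01 CPM per kb (n = 5), ranked below Sel1l, at 36.0 ± 3.11, with overlapping libraries. Os9 remained first at 95.6 ± 6.77, and Derl3 was last in all 4 groups.

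**Figure D2:**
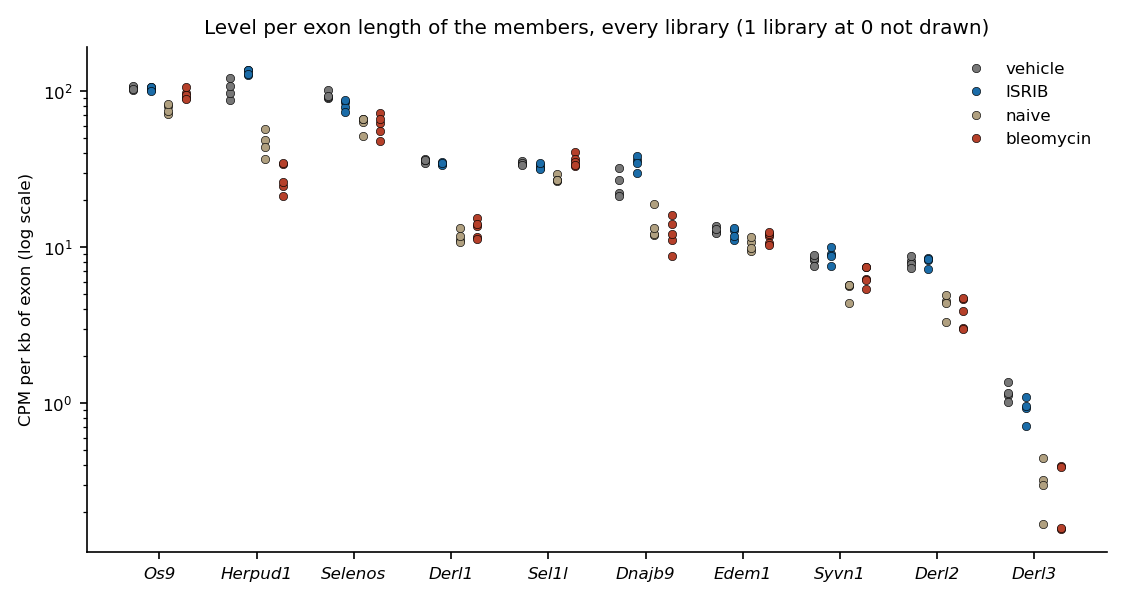
CPM per kilobase of exon (log scale) of the 10 members, 1 point per library, in vehicle and ISRIB (4 libraries each, poly(A)) and naive and bleomycin (4 and 5 libraries, total RNA), ordered by the vehicle mean. In vehicle, Os9, Herpud1 and Selenos lie highest, and Derl3 lies lowest in each group. The ISRIB points of Herpud1 lie above its vehicle points. Poly(A) and total-RNA points share the axis but are not compared. One bleomycin library with 0 Derl3 counts is not drawn.

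The effect of ISRIB in naive mice was examined first. Of 12054 genes tested with edgeR's quasi-likelihood test, 275 were called at a Benjamini-Hochberg adjusted p under 0.05 (2.28%), 1.10% higher and 1.18% lower. Of the 10 members, which all passed the count filter, 1 was called higher and 0 lower, and 3 had an unadjusted p under 0.05, 2 higher and 1 lower, as had 15.8% of all genes. DESeq2 and limma-voom each called 2 members higher and 0 lower. The members' median log2 fold change was -0.04, with 4 above and 6 below zero, against a median of -0.00014 over all genes tested. The groups did not overlap for Herpud1 (ISRIB higher) and Selenos (ISRIB lower), where 8.65% of all genes had groups that did not overlap (4.26% higher and 4.39% lower).

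Herpud1 (ENSMUSG00000031770, chr8:94386438-94395377, plus strand) encodes a membrane protein with a ubiquitin-like domain that organises the HRD1 complex. In the vehicle libraries it was at 206, 226, 283 and 253 CPM, and in the ISRIB libraries at 320, 297, 318 and 302 CPM. The lowest ISRIB library exceeded the highest vehicle library, and the ISRIB libraries were more alike than the vehicle libraries. The means were 242 ± 33.1 and 309 ± 11.4 CPM (SD, n = 4 each). This was a 1.28-fold difference, 0.35 on the log2 scale (SE 0.08, 95% interval 0.19 to 0.52, edgeR adjusted p = 0.0273). Herpud1 was called in 12 of 17 alternative analyses. It lost the call when vehicle 2 (edgeR adjusted p = 0.0843), ISRIB 1 (0.0655), ISRIB 2 (0.0517), ISRIB 3 (0.0688) or ISRIB 4 (0.0640) was left out, while its log2 fold change stayed between 0.28 and 0.44.

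Dnajb9 encodes ERdj4, a luminal cochaperone of BiP that binds misfolded ERAD substrates, surfactant protein C variants among them. It was at 56.8, 54.4, 68.8 and 82.4 CPM in the vehicle libraries and at 92.7, 76.2, 98.4 and 88.8 CPM in the ISRIB libraries. The groups overlapped because vehicle 4 exceeded ISRIB 2, while the other 3 vehicle libraries lay below all ISRIB libraries. The log2 fold change was 0.44 (SE 0.14, 95% interval 0.12 to 0.76), larger than that of Herpud1 but with more spread, and did not pass the test (edgeR adjusted p = 0.167). Dnajb9 passed in 6 of 17 alternatives, including DESeq2 (adjusted p = 0.0043), limma-voom (0.0315) and edgeR without vehicle 4 (0.0053).

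Selenos encodes a selenoprotein of the endoplasmic reticulum membrane that recruits p97 to derlins. It was at 134, 135, 150 and 137 CPM in the vehicle libraries and 126, 118, 129 and 109 CPM in the ISRIB libraries. Every ISRIB library lay below every vehicle library. The log2 fold change was -0.20 (SE 0.06, 95% interval -0.33 to -0.08), with an edgeR adjusted p of 0.0696, just outside the threshold. It passed with upper-quartile scaling (adjusted p = 0.0495) and with no filter on low counts (0.0231).

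The HRD1 core showed smaller differences after ISRIB, and none passed. Syvn1, the HRD1 ubiquitin ligase itself, differed by 0.08 on the log2 scale (95% interval -0.09 to 0.25, edgeR adjusted p = 0.720), and its partner Sel1l, which holds substrate lectins at the ligase, by -0.06 (-0.17 to 0.04, adjusted p = 0.597). The derlins, membrane proteins of the retrotranslocation channel, gave -0.06 for Derl1 (-0.17 to 0.04), 0.02 for Derl2 (-0.12 to 0.16) and -0.33 for Derl3 (-0.85 to 0.20). The 2 selection factors, the mannosidase-like Edem1 and the lectin Os9, gave -0.08 (-0.21 to 0.05) and -0.02 (-0.12 to 0.08). For 6 of these 7 genes the interval lay within 0.25 of zero, whereas Derl3 rested on 111 counts in all vehicle libraries and 94 in all ISRIB libraries.

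**Figure D3:**
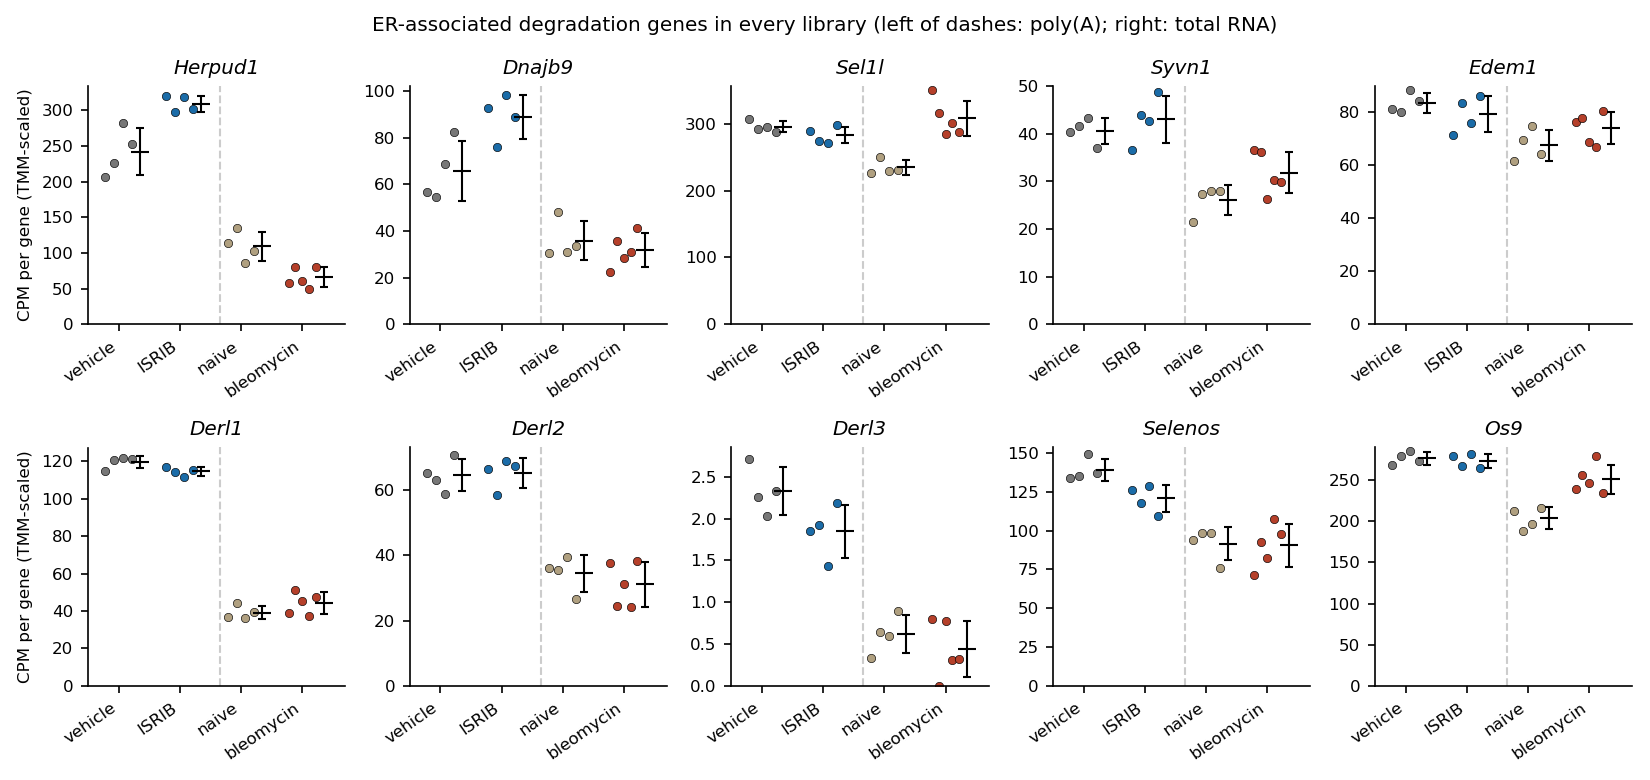
CPM (from 0, TMM-scaled, not divided by length) of each member in every library of vehicle and ISRIB (left of the dashed line) and naive and bleomycin (right), with mean and SD as bars. Herpud1 points of ISRIB (297 to 320 CPM) lie above those of vehicle (206 to 283 CPM), and those of bleomycin (49.5 to 80.8 CPM) below those of naive (85.3 to 135 CPM).

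The bleomycin comparison asked how the same genes stood in the injured lung. Among the 11223 genes that entered the edgeR fit, 2280 were called (20.3%), 11.1% higher and 9.24% lower. Of the 9 members that passed the count filter, 2 were called higher (Sel1l and Os9) and 1 lower (Herpud1), and 3 had an unadjusted p under 0.05, as had 33.2% of all genes. DESeq2 and limma-voom gave the same counts. The members' median log2 fold change was 0.14, with 5 above and 4 below zero, against 0.0026 over all genes tested. Groups did not overlap for these 3 genes, where 19.7% of all genes had groups that did not overlap (10.4% higher and 9.35% lower).

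Herpud1 was at 114, 135, 85.3 and 103 CPM in the naive libraries and at 57.9, 80.3, 60.9, 49.5 and 80.8 CPM after bleomycin. Every bleomycin library lay below every naive library, with naive 3 closest to them. The means were 109 ± 20.7 (SD, n = 4) and 65.9 ± 14.0 CPM (n = 5). The fitted difference was -0.72 on the log2 scale (SE 0.16, 95% interval -1.05 to -0.40, edgeR adjusted p = 0.00252). Herpud1 was called lower in all 18 alternatives run, with log2 fold changes from -0.83 to -0.60 and adjusted p up to 0.0196.

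Sel1l (ENSMUSG00000020964, chr12:91806043-91849157, minus strand) was at 227, 251, 230 and 231 CPM in the naive libraries and at 350, 316, 285, 302 and 288 CPM after bleomycin. The groups did not overlap. The means were 235 ± 10.9 (SD, n = 4) and 308 ± 26.6 CPM (n = 5). The fitted difference was 0.39 on the log2 scale (SE 0.11, 95% interval 0.17 to 0.61, edgeR adjusted p = 0.0111). It was called higher in all 18 alternatives, with adjusted p up to 0.0467.

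Os9 (ENSMUSG00000040462, chr10:127095650-127121131, minus strand), a lectin that hands trimmed glycoproteins to SEL1L, was at 213, 189, 196 and 217 CPM in the naive libraries and at 239, 256, 247, 280 and 235 CPM after bleomycin. The groups did not overlap, although the highest naive library lay close to the lowest bleomycin library. The log2 fold change was 0.30 (SE 0.10, 95% interval 0.09 to 0.52), with an edgeR adjusted p of 0.0446. This call was lost in 10 of 18 alternatives, among them leaving out naive 1, 2, 3 or 4 (adjusted p 0.0771 to 0.144), bleomycin 3 (0.0539) or bleomycin 4 (0.0669).

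Syvn1 stood at 21.5, 27.3, 27.9 and 28.0 CPM in the naive libraries and 36.5, 36.3, 26.3, 30.3 and 29.9 CPM after bleomycin. All bleomycin libraries except bleomycin 3 lay above all naive libraries. Its log2 fold change of 0.28 (SE 0.17, 95% interval -0.07 to 0.62) did not pass (edgeR adjusted p = 0.255). The interval includes the values fitted for its partners Sel1l and Os9.

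Dnajb9 was at 30.5, 48.3, 30.9 and 33.7 CPM in the naive libraries and 22.5, 35.7, 28.2, 30.9 and 41.3 CPM after bleomycin, and the groups overlapped. Its log2 fold change of -0.18 (95% interval -0.57 to 0.21, edgeR adjusted p = 0.553) changed sign without naive 2 (0.0079). Selenos differed by -0.02 (-0.29 to 0.25, adjusted p = 0.936), Edem1 by 0.14 (-0.11 to 0.39), Derl1 by 0.17 (-0.13 to 0.48) and Derl2 by -0.14 (-0.52 to 0.23). These intervals are wide enough to hold changes of the size measured for Os9, except that of Selenos, which lies within 0.30 of zero. Derl3 had 9 counts in all naive libraries and 11 in all bleomycin libraries, a depth-scaled ratio of 0.728 with an exact 95% interval of 0.274 to 1.99 that covers counting error only. A change of Derl3 was not detectable at this depth.

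**Figure D4:**
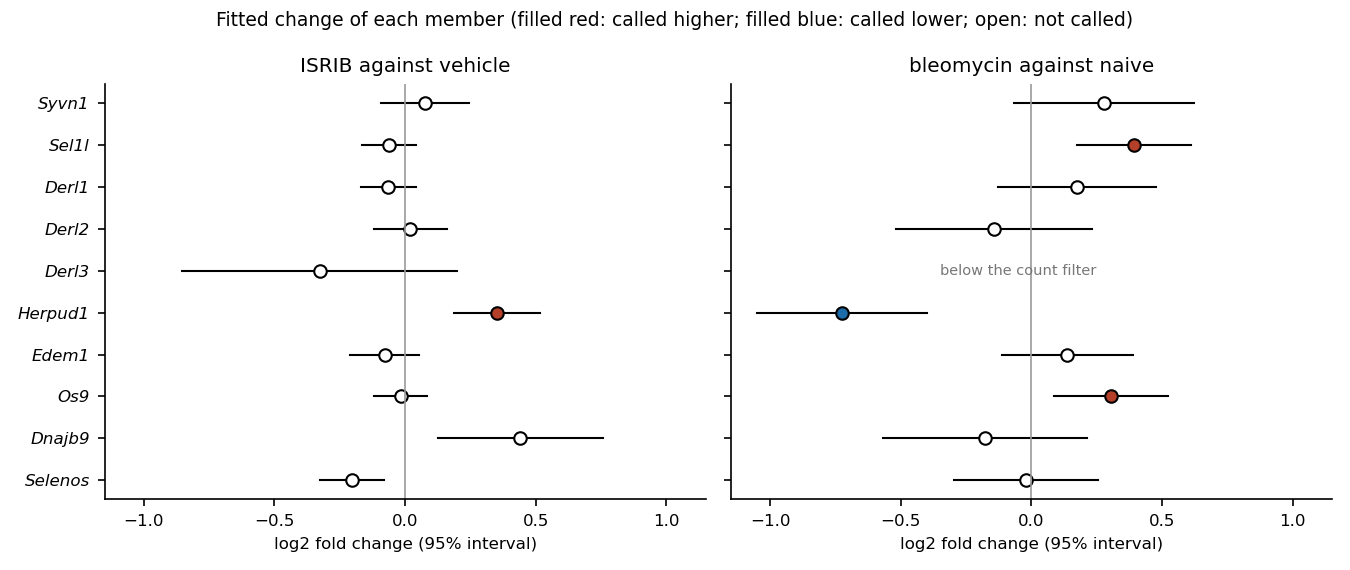
Log2 fold change of each member with its 95% interval in the ISRIB comparison (left) and the bleomycin comparison (right). Herpud1 is called higher on the left (0.35) and lower on the right (-0.72), Sel1l (0.39) and Os9 (0.30) are called higher on the right, and Derl3 fell below the count filter on the right.

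The summed alveolar type 1 and fibroblast markers were higher in every bleomycin library than in every naive library, while the sums of the other marker lists overlapped. The number of genes detected was mostly lower after bleomycin. The naive libraries had 17108 to 19763 genes with at least 1 count and the bleomycin libraries 13940 to 17112, lowest in bleomycin 4, although 3 of the 5 bleomycin libraries were deeper than every naive library. Without bleomycin 4 Herpud1 differed by -0.64, Sel1l by 0.40 and Os9 by 0.27 on the log2 scale, and the call of Os9 was lost. The share of ribosomal-RNA-like and mitochondrial genes overlapped, at 25.5% to 32.9% in the naive and 21.8% to 31.8% in the bleomycin libraries. The 7 alveolar type 1 markers summed to 1031 to 1259 CPM in the naive and 1521 to 1887 CPM in the bleomycin libraries. By edgeR 5 of the 7 were called higher, among them Ager and Hopx, beside 11.1% of all genes. The 6 fibroblast markers summed to 2.68 to 9.06 CPM in the naive and 17.0 to 115 CPM in the bleomycin libraries, with Lum at 0 in every library. Of 3 tested, edgeR called 2 higher (Col1a1 and Col3a1) and limma-voom 1. The highest sum was in bleomycin 2. Without that library Herpud1 differed by -0.80, Sel1l by 0.39 and Os9 by 0.30 on the log2 scale, and all 3 calls were kept (edgeR adjusted p for Os9 0.0495). The 6 endothelial markers summed to 15.8 to 23.7 CPM in the naive and 17.5 to 55.6 CPM in the bleomycin libraries. Of 4 tested, 3 were above and 1 below zero. EdgeR called 1 higher (Cdh5, 1.44, adjusted p = 0.0149) and limma-voom 0. The 6 airway markers summed to 446 to 902 CPM and 479 to 904 CPM. Of 4 tested, again 3 were above and 1 below zero. EdgeR called 1 higher (the ciliated-cell gene Foxj1, 2.27, adjusted p = 0.0165) and limma-voom 0. The sums of macrophage markers ran from 7.81 to 13.5 CPM in the naive and 7.73 to 14.6 CPM in the bleomycin libraries, with Marco and C1qa at 0 in both groups. The 8 AT2 markers ranged from 78566 to 85902 CPM and from 48589 to 86404 CPM, lowest in bleomycin 1. The part of cell composition and of the number of genes detected in the changes of Herpud1, Sel1l and Os9 was not tested.

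Beyond the 10 members, a further list of 65 ERAD genes was read from the same fits, and all 65 were tested in both comparisons. After ISRIB, 2 were called higher and 2 lower by edgeR, with a median log2 fold change of -0.0028, where 2.28% of all genes were called. Erlin1, a membrane scaffold that recruits the ligase RNF170, was higher by 0.53 (42.8 ± 3.19 against 61.7 ± 9.08 CPM, SD, n = 4 each, edgeR adjusted p = 0.00598). Txndc11, a reductase that works with EDEM proteins, was higher by 0.34 (adjusted p = 0.0186). Uggt1, the glucosyltransferase that senses misfolded glycoproteins, was lower by -0.26 (123 ± 2.50 against 103 ± 4.68 CPM, adjusted p = 0.00945), and Selenok, a selenoprotein that binds derlins and p97, was lower by -0.24 (0.0377). Erlin1 and Uggt1 were called in all 17 alternatives, Txndc11 in 14 (not without vehicle 1, vehicle 2 or ISRIB 4) and Selenok in 12 (not without vehicle 1, 2 or 4 or ISRIB 2 or 4). With any 1 library left out, the number called higher ran from 1 to 2 and the number called lower from 1 to 3, and DESeq2 called 3 higher and 4 lower.

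After bleomycin, 6 of the 65 were called higher and 1 lower by edgeR, with a median log2 fold change of 0.07. These shares are no larger than those of all genes (11.1% higher and 9.24% lower). In the cytosol, Vcp, which encodes p97, was higher by 0.78 (90.8 ± 15.98 against 156 ± 8.25 CPM, SD, n = 4 and 5, edgeR adjusted p = 0.000124), its ubiquitin-binding cofactor Nploc4 by 0.79 (adjusted p = 0.00189), and the proteasome shuttle factors Ubqln1 and Rad23b by 0.45 (0.00649) and 0.40 (0.0382). In the lumen, Sdf2l1, a subunit of a BiP-associated complex, was higher by 1.13 (7.33 ± 2.82 against 16.4 ± 3.01 CPM, adjusted p = 0.00615) and Uggt1 by 0.78 (0.00019). Erlin1 was lower by -0.56 (adjusted p = 0.0386). The call of Erlin1 was lost in 8 of 18 alternatives (without naive 1, 2, 3 or 4 or bleomycin 1, 2, 3 or 4) and that of Rad23b in 9, including limma-voom (0.0592) and leaving out any naive library or bleomycin 3, 4 or 5. The other 5 were called higher in all 18.

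By role, after bleomycin 2 of 12 p97 genes, 2 of 16 deubiquitinases, shuttles and holdases, 1 of 6 lectin and glycan-trimming genes and 1 of 4 luminal reductases and cochaperones were called higher, beside 11.1% of all genes, so that no role is singled out by these counts. Of 22 membrane ligases and scaffolds 0 were called higher and 1 lower, and of 5 ubiquitin-conjugating enzymes 0 were called in either direction by edgeR, DESeq2 or limma-voom (1 of the 22 had an unadjusted edgeR p under 0.05 in the higher direction and none of the 5 in either). After ISRIB the same 5 enzymes were all above zero (median 0.06), with 2 at an unadjusted p under 0.05 and 0 called by any of the 3 tools.

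The members can be set beside 16 folding genes of the endoplasmic reticulum, mostly chaperones and disulfide isomerases. Like the members, these genes were chosen with earlier results of these data known. After ISRIB, 15 of the 16 were below zero and 7 were called lower by edgeR (median log2 fold change -0.22), beside 1.18% of all genes. In the higher direction 0 were called by edgeR, DESeq2 or limma-voom, and 0 had an unadjusted edgeR p under 0.05. The chaperone gene Hspa5, which encodes BiP, was itself not called, at -0.22 (748 ± 57.7 against 642 ± 74.2 CPM, SD, n = 4 each, edgeR adjusted p = 0.149), and passed when ISRIB 4 was left out (0.0152). The number called lower fell to 4 without vehicle 1, vehicle 4 or ISRIB 3. After bleomycin 14 of the 16 were above zero and 11 were called higher by edgeR (median 0.62), beside 11.1% of all genes. Hspa5 was at 0.72 (461 ± 48.8 against 758 ± 36.4 CPM, n = 4 and 5, edgeR adjusted p = 7.84e-05). Herpud1 thus had the opposite sign to this list's median in both comparisons. So had Dnajb9 (0.44 and -0.18) and Derl2 (0.02 and -0.14), neither called by edgeR. The 95% intervals of Derl2 in both comparisons and of Dnajb9 after bleomycin include zero. After bleomycin Sel1l and Os9 had the same sign as the list's median, as had Syvn1, Edem1 and Derl1, which were not called. The difference between Herpud1 and the list was not tested.

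Among 13 genes of the stress sensors and their effectors, 1 was called by edgeR after ISRIB, beside 2.28% of all genes. This was Atf4, which encodes a transcription factor of the integrated stress response (0.27, 72.2 ± 7.32 against 87.0 ± 6.45 CPM, SD, n = 4 each, edgeR adjusted p = 0.0459). That call was lost in 8 of 17 alternatives, including limma-voom (0.0708) and leaving out vehicle 1, 2 or 3 or ISRIB 2, 3 or 4. Its target Ddit3 was at 0.37 (5.08 ± 0.66 against 6.56 ± 0.74 CPM, adjusted p = 0.238). Of the sensor arms that control ERAD genes, Xbp1 was at -0.19 (adjusted p = 0.0629), Ern1, which encodes IRE1, at 0.08 and Atf6 at -0.07. Xbp1 passed in 5 of 17 alternatives, among them DESeq2 (0.0375).

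After bleomycin none of these 5 was called by edgeR: Xbp1 was at -0.07, Ern1 at -0.20, Atf6 at -0.14, Atf4 at -0.22 and Ddit3 at -0.05 on the log2 scale. None had an unadjusted edgeR p under 0.05 or passed in any of 18 alternatives. Of the 13 sensor genes 1 was called by edgeR, beside 20.3% of all genes. That gene was Atf6b, which was not among the genes set to be named and was chosen after its value was seen (0.72, edgeR adjusted p = 0.00598). The sum of all isoforms counted for Xbp1 does not separate its spliced form.

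**Figure D5:**
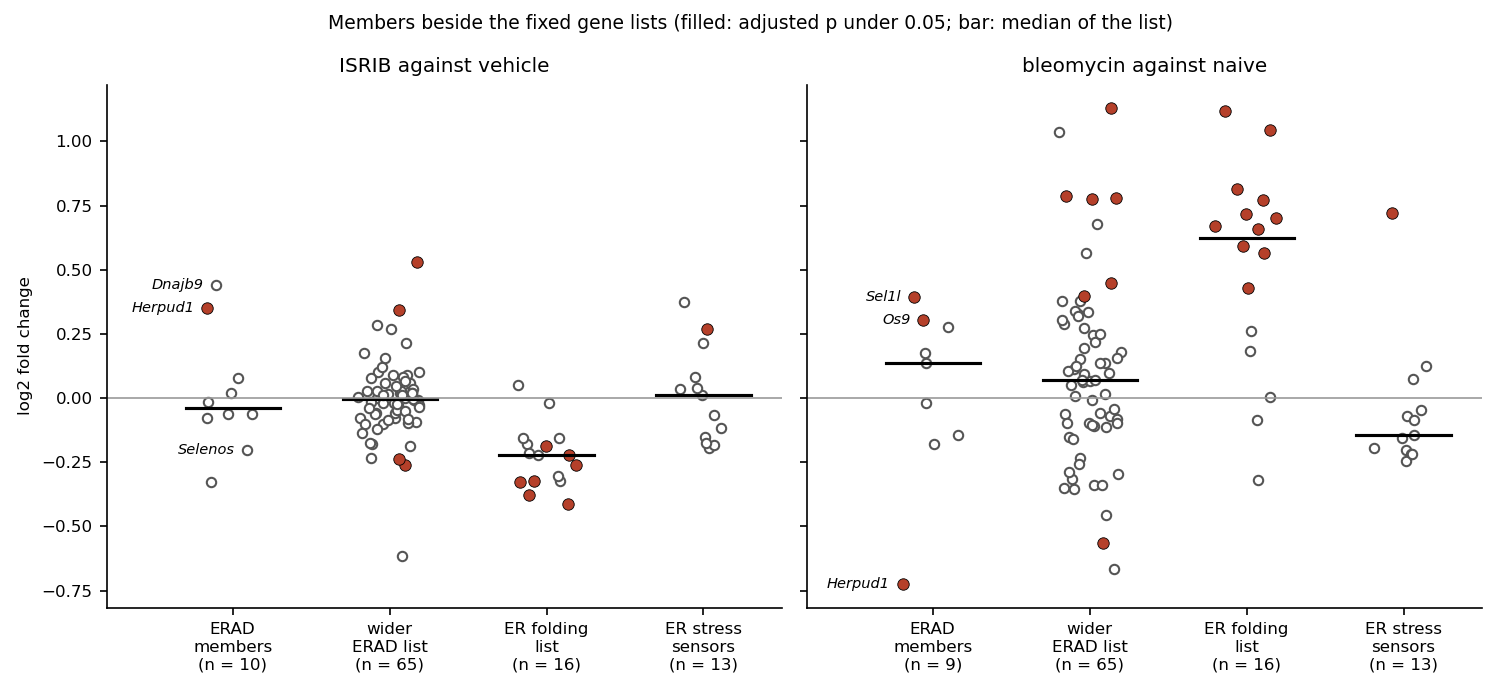
Log2 fold change of each tested gene in the 10 members, the 65 further ERAD genes, 16 folding genes and 13 stress sensors, after ISRIB (left) and bleomycin (right). Filled points passed the test and bars mark medians. Of the 16 folding genes 15 lie below zero on the left (median -0.22) and 14 above on the right (median 0.62), while Herpud1 lies at 0.35 and -0.72.

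Some members share bases with a neighbouring gene in GENCODE M21: Dnajb9 shares 14 bases with Mir5627, Syvn1 91 bases with Mrpl49 and Derl2 231 bases with Mis12, each on the opposite strand. Whether reads were counted by strand is not stated in the labels or files used, so reads in these stretches cannot be assigned. Herpud1, Sel1l, Edem1, Derl1, Derl3, Selenos and Os9 overlap no other gene there.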

How the data were processed

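The authors deposited raw read counts per Ensembl gene, 1 table per library kit, and no further scaling of the values was found. The submitters' processing notes name bcl2fastq 2.19.1, FastQC, Trimmomatic 0.36, STAR 2.6.0, HTSeq 0.11.2 and the build mm10. The labels used here state neither annotation nor strand setting. Symbols, positions and exon lengths came from GENCODE M21 (42546 of 43430 IDs matched). Counts were filtered with filterByExpr (minimum 10, total 15), scaled with TMM and tested with the two-sided robust quasi-likelihood test of edgeR 4.0.16 (R 4.3.3), within each kit and by group alone. A gene was called at a Benjamini-Hochberg adjusted p under 0.05, taken over all genes tested. The SE is the unshrunken log2 fold change over the root of F.

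Within each group, libraries were further apart than sampling noise (chi-squared per degree of freedom 3.56 to 47.1, against 1). Each library was counted once. Separate preparations from the same animal can also differ by more than sampling noise, so this does not show separate animals. Alternatives used DESeq2 1.42.0, limma 3.58.1 (voom), other scalings, filters, a replicate block and leaving out each library. The text names all members, up to 6 called genes per direction of the wider ERAD list, and Hspa5, Xbp1, Atf6, Ern1, Atf4 and Ddit3. Members and lists were chosen with earlier results of these data known. Promoters are RefSeq windows of GRCm38.p6. Counting depth limits Derl3 most.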

Additional observations from a re-analysis of the deposited data

Results flagged for a closer look

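Of 40 groups of libraries (10 members in 4 groups), 2 held a library farther from the rest than Dixon's test allows at the 95% level, and chance alone flags about 5% of such groups. In the vehicle group Derl1 was lowest in vehicle 1, at 114.9 CPM, against 121 to 122 CPM in the other 3 libraries. In the naive group Syvn1 was lowest in naive 1, at 21.47 CPM, against 27.3 to 28.0 CPM in the other 3. Neither gene was called with or without that library.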

How the results depend on the processing

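Without the filter on low counts 607 genes were called after ISRIB instead of 275. Leaving out 1 library gave 130 to 318 calls, the fewest without vehicle 1 (130), vehicle 2 (164) and ISRIB 4 (182). The number of members called higher after ISRIB was 2 instead of 1 with DESeq2, limma-voom, no filter and edgeR without robust estimation (chosen after seeing the data), through Dnajb9, and 0 to 2 with a library left out. The number called lower was 1 instead of 0 with upper-quartile scaling and with no filter (Selenos), and 0 with any library left out. After bleomycin, 1 member instead of 2 was called higher with upper-quartile scaling, no filter and edgeR without robust estimation (Os9 lost), and 1 to 2 with a library left out. Leaving out a library gave 1544 to 2576 genes called, and 1 member called lower throughout. Signs turned near zero with a library left out. After ISRIB, Derl2 ran from -0.024 to 0.069 (below zero without vehicle 3 or, at -0.0045, ISRIB 3) and Os9 from -0.031 to 0.00056 (above zero without ISRIB 4). After bleomycin, Dnajb9 ran from -0.29 to 0.0079 (above zero without naive 2) and Selenos from -0.10 to 0.055 (above zero without naive 2 or 3 or bleomycin 1 or 3). Xbp1 ran from -0.15 to 0.044 (above zero without bleomycin 1) and Ddit3 from -0.18 to 0.10 (above zero without naive 1 or 3 or bleomycin 5), with 0.090 for Ddit3 under the replicate block. The causes were not tested. With no filter the median of all genes after bleomycin moved to -0.26. Same-numbered libraries did not deviate together (correlations -0.109 to 0.0849 in the first set and -0.0393 to 0.0474 in the second), and not every library correlated best with its own number, so the replicate numbers were not taken as pairing. With the replicate block 323 genes were called after ISRIB, with 2 members higher (Herpud1 and Dnajb9) and 0 lower, and 2206 after bleomycin, with 1 member higher (Sel1l) and 1 lower.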
